A study of Drosophila melanogaster with 4 samples.

Results

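Distal intergenic regions are stretches of open chromatin that lie away from every annotated gene. Here they are merged regions on 2L, 3L and 3R, in windows of 71279 kb in all that leave out the arm ends and the stretches near the centromeres, whose midpoint lies in no annotated gene and more than 5000 bp from each one. A merged region is a run of peaks, from any of the 4 libraries, that share at least 1 bp. The rule used position only and found 819 regions, of 23129 in the same windows and 44429 on the main chromosome arms in all. The other 22310 regions of the windows are called the rest.

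ATAC-seq maps open DNA by the cuts of a transposase. It was run on nuclei from the thorax of Drosophila melanogaster, from muscle tissue in which flight muscle was enriched. The animals were at the pharate stage, 96 hours after puparium formation at 25 °C. The mutant, w[1118] with Pgk[Delta.E2F], carries a mutated E2F site upstream of Pgk, the gene of the glycolytic enzyme phosphoglycerate kinase, and was represented by line 12 alone. The control was w[1118], a background that both genotypes share. Each genotype had 2 libraries, mutant 1 and 2 and control 1 and 2, each from at least 40 pooled animals, and the labels do not say whether the 2 were dissected separately. The p-values below therefore measure only the spread between these samples, and in such bulk tissue fewer nuclei with an open region and less opening per nucleus cannot be told apart.

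Open chromatin far from genes often marks enhancers, which are bound by transcription factors and can act over long distances on a gene that need not be the nearest one. In flies, long gene-poor stretches tend to surround developmental regulators, whose many enhancers each drive part of the expression pattern. Intergenic stretches also hold insulators, unannotated transcripts and transposable elements. Genes used in most cells, such as those of glycolysis or DNA replication, usually sit in gene-dense neighbourhoods with their control elements close to the start site.

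The lists held 25528 and 25985 peaks on the main arms in mutants 1 and 2, and 29341 and 29923 in controls 1 and 2. The library background, recovered from the deposited values as a rough guide to depth, came to 4.62 and 5.26 fragments per position in mutants 1 and 2, against 7.44 and 7.61 in controls 1 and 2. Median summit heights, 25 and 33 fragments in the mutants, against 43 and 38 in the controls, did not follow it in proportion. Of 12 flight muscle marker genes, 8 had a peak within 500 bp of a gene end in all 4 libraries. Of 4 neuronal markers, 0 did, and Syt1, Rdl and VGlut had none in any library, while both glial markers were called in all 4. Of 3 blood cell markers, srp was called in all 4 libraries, and Hml and NimC1 in none. Of 2 fat body markers, 2 and 1 were called in mutants 1 and 2, against 1 and 2 in controls 1 and 2. Of 2 tracheal markers, 1 was called in mutant 1 and 0 in the other libraries. Control 2 alone had a peak at the remaining neuronal marker. A peak at a gene end is not a measure of expression. The share of all genes with such a peak was not counted, so these counts do not identify a cell type.

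Distal sequence was sparsely populated. It made up 5699 kb, or 8%, of the windows, but held 3.54% of the merged regions. Mutants 1 and 2 had 7.79 and 7.55 regions per 100 kb of distal sequence, against 18.6 and 17.1 per 100 kb of the rest of the windows. Controls 1 and 2 had 9.02 and 9.34 per 100 kb of distal sequence, against 20.9 and 22.7. The density was lower in distal sequence in all 4 libraries, by a mean of 11.4 ± 1.59 regions per 100 kb (distal minus rest -11.4; SD, n = 4 libraries; exact sign-flip test, two-sided, p = 0.125, the smallest that 4 libraries allow). The ratio of the densities stayed between 0.412 (control 2) and 0.441 (mutant 2).

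Distances ran up to 56419 bp, with a median of 8891 bp. The 3 regions just inside the threshold lay 5005, 5005 and 5006 bp from a gene, and each was called in 1 library. The 3 just outside lay 4980, 4978 and 4976 bp away, and the last 2 were called in all 4 libraries. The arms were similar in density, with 15.4 distal regions per 100 kb on 2L, 13.4 on 3L and 14.4 on 3R. The share called in all 4 libraries was 27.2% on 2L, 38.4% on 3L and 25.1% on 3R.

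The regions were also close to each other. Of the 819, 482 (58.9%) had another distal region within 1000 bp, and the median distance to the nearest other one was 636 bp.

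Fewer distal regions were called in the mutants, whose lists were shorter as a whole. Mutants 1 and 2 had 444 and 430 distal regions, against 514 and 532 in controls 1 and 2. The groups did not overlap, and the mutant mean was lower by 86 regions (437 ± 9.90 in mutants, 523 ± 12.7 in controls, SD, n = 2 each; permutation of the libraries, exact and two-sided, p = 0.333, which is the lowest value for 2 against 2). As a share of the regions of a library, distal regions were 3.52% and 3.69% in mutants 1 and 2 and 3.61% and 3.46% in controls 1 and 2. These shares overlapped, with a difference of 0.0664 percentage points that was below the SD of either group (permutation over libraries, exact, p = 0.667). When each list was cut to its strongest 25528 peaks, the numbers were 444 and 423 in the mutants, against 470 and 447 in the controls, a difference of -25 (exact permutation test, p = 0.333).

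The number of libraries that called a region divided the set into a recurrent and a private part. Of the 819 regions, 247 (30.2%) had a peak in all 4 libraries, close to the 28.2% of all regions in the windows (29.6% for all regions and 32.2% for distal ones with lists of equal length). Another 118 were called in 3 libraries, 124 in 2 and 330 (40.3%) in 1. Regions private to 1 library numbered 95 in mutant 1, 38 in mutant 2, 86 in control 1 and 111 in control 2. They were thus most frequent in mutant 1 and control 2, where they made up 21.4% and 20.9% of the distal regions, and least so in mutant 2, with 8.84%. The share was 16.7% in control 1. In the rest the shares were 23.0% and 10.2% in mutants 1 and 2, against 15.6% and 17.0% in controls 1 and 2, close to those of distal regions. Among the regions called in 3 libraries, 62 lacked a call in mutant 1 and 29 in mutant 2, against 10 in control 1 and 17 in control 2. As shares of such regions these were 52.5% and 24.6% for mutants 1 and 2, against 8.47% and 14.4% for controls 1 and 2. In the rest they were 57.8% and 24.1% for the mutants, against 12.6% and 5.44% for the controls, so the mutant shares were alike and the order of the controls was reversed.

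**Figure D1:**
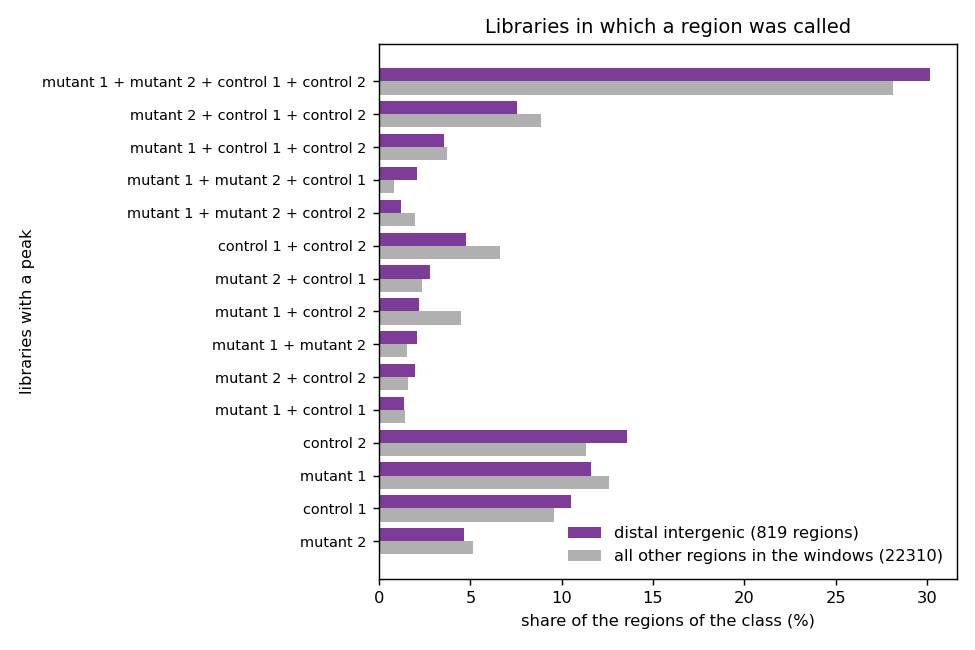
Share of distal intergenic regions (purple, 819) and of all other regions in the windows (grey, 22310) for each combination of libraries with a peak (vertical axis), in percent of the class (horizontal axis). Both classes have their longest bar at all 4 libraries, 30.2% and 28.1%, and the order of the remaining combinations is similar.

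Mutant-only regions, with a peak in both mutants and in neither control, numbered 17, or 2.08% of the distal regions, against 1.57% of all regions in the windows. Control-only regions, the reverse, numbered 39, or 4.76%, against 6.53% of all regions in the windows. Neither share was far from its background. Of pairs of mixed genotype, 23 regions were called in mutant 2 and control 1 alone, 18 in mutant 1 and control 2 alone, 16 in mutant 2 and control 2 alone, and 11 in mutant 1 and control 1 alone. The mutant-only count lay inside the range of these mixed pairs, 11 to 23, and the control-only count above it. In the rest, too, the control pair was the most frequent pair, with 1472 regions, against 1000 for mutant 1 and control 2.

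Control-only regions made up 69.6% of the distal genotype-specific regions (exact binomial interval 55.9 to 81.2 at 95%, counting error only), against 81.0% in the rest (79.1 to 82.8). With lists of equal length the share was 64.0% (49.2 to 77.1), against 67.2% in the rest, from 18 mutant-only and 32 control-only regions. There the mutant-only share of distal regions was 2.42%, against 2.45% of all regions, and the control-only share 4.30%, against 4.99%. With lists scaled to an equal library background, 18 of 784 distal regions were mutant-only, where 1.92% of all regions were, and 36 of 784 were control-only (4.59%, against 5.8%), and 31.5% of distal regions had a peak in all 4 libraries, against 29.0% of all regions.

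Agreement between libraries did not follow genotype in the mutants. Of the distal regions of mutants 1 and 2, 65.5% and 67.7% were also called in the other mutant, against 59.4% and 64.4% in the rest. Of those of controls 1 and 2, 73.3% and 70.9% were also called in the other control, against 76.9% and 71.0% in the rest. Both mutants shared more distal regions with either control than with each other. Mutant 1 shared 68.5% of its distal regions with each control, and mutant 2 shared 81.2% with control 1 and 77.9% with control 2. This held in the rest too, where mutant 1 shared 62.4% with control 1 and 70.0% with control 2. Mutant 2 shared 79.7% and 80.5% there. Of its distal regions, control 1 shared 59.1% and 67.9% with mutants 1 and 2, and control 2 shared 57.1% and 63.0%, below the shares between the controls. In the rest these shares were 55.4% and 65.3% for control 1 and 57.4% and 60.8% for control 2, again below. The control lists were longer, and the part of list length in these shares was not tested. Within genotypes, agreement in distal regions was above that of the rest in both mutants and below it in both controls, by 0.125 percentage points in control 2. Over the 4 libraries the difference averaged 1.41 ± 4.20 percentage points (SD, n = 4; exact sign-flip test, p = 0.75). The 2 values of a genotype rest on the same shared regions, 291 distal ones in the mutants and 377 in the controls. They are 1 pair seen from both sides, which the test counts as separate libraries.

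Recurrence rose with the rank of the best peak of a region. Part of this is built in, because a region called in more libraries has more peaks to take the best from. Where the best peak of a distal region ranked in the top 25% of its list by −log10 p, 118 of 127 regions (92.9%) were called in all 4 libraries, against 88.4% in the rest. Between 25% and 50% this held for 110 of 222 (49.5%), against 36.0% in the rest. Between 50% and 75% it held for 19 of 242 (7.85%), against 8.11% in the rest, and in the weakest 25% for 0 of 228, against 0.534% in the rest. Mutant-only and control-only regions came mostly from the weaker part of the lists, and 1 mutant-only and 2 control-only regions fell in the top 25%.

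Distal peaks were about as wide as other peaks, with a slightly higher median in every list. Their median width was 120 and 134 bp in mutants 1 and 2 and 139.5 and 136 bp in controls 1 and 2. In the rest it was 118 and 113 bp in the mutants, against 128 and 135 bp in the controls. Distal peaks were wider in all 4 libraries, by a mean of 8.88 ± 9.37 bp (SD, n = 4; exact sign-flip test, p = 0.125, the smallest possible). With distal set at over 2000 bp from genes the mean difference was 2.25 bp (exact sign-flip test, p = 0.875), and without mutant 2 it was 4.83 bp. Between genotypes the median was lower by 10.75 bp in the mutants (127 ± 9.90 bp in mutants and 137.75 ± 2.47 bp in controls, SD, n = 2 each; exact permutation test, p = 0.333). Mutant 2 lay within 2 bp of control 2, so most of this difference came from mutant 1, and without mutant 1 it was -4 bp.

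Merged width rose with recurrence, in part because a union over more libraries is wider. The median width was 82 bp for distal regions called in 1 library, 114 bp in 2, 157 bp in 3 and 264 bp in 4. In the rest the medians were 87, 133, 158 and 241 bp. Regions of at least 500 bp made up 5.25% of the distal set (43 regions), against 3.11% of the rest, and 42 of these 43 were called in all 4 libraries. All 8 regions of at least 1000 bp were called in all 4.

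Within the 247 distal regions called in all 4 libraries, widths can be compared region by region. The summed peak width had a median of 180 and 204 bp in mutants 1 and 2 and 216 and 218 bp in controls 1 and 2. The groups did not overlap, with a difference of -25 bp (exact permutation test, p = 0.333, again the lowest possible). Both mutants were narrower than both controls in 102 of the 247 (41.3%), against 55.4% of all regions called in all 4 libraries, and wider in 13 (5.26%), against 3.16%. The library background differed between the genotypes in the same direction, and its part in the widths was not tested. The summits of the strongest peaks lay within a median span of 37 bp across the 4 libraries, and within 100 bp in 75.3% of the regions.

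**Figure D2:**
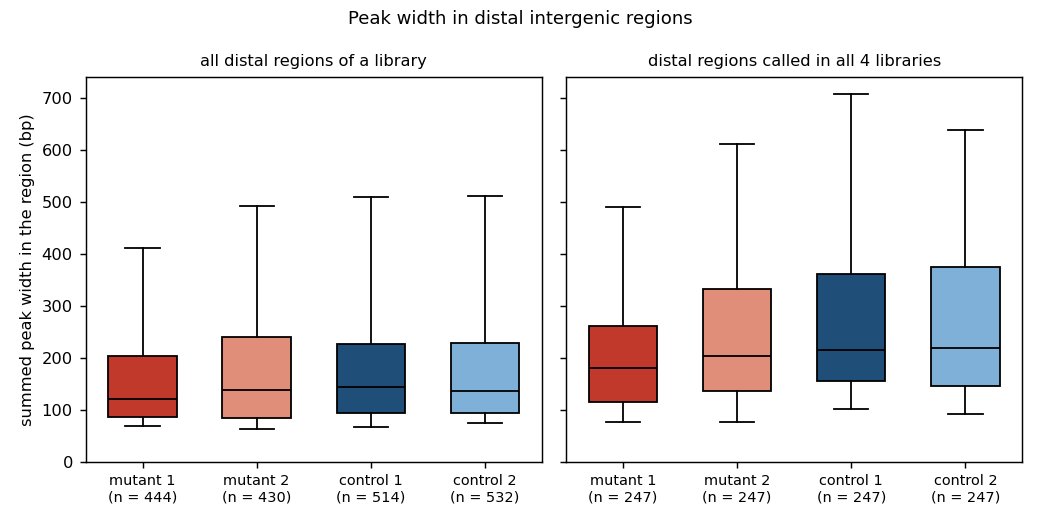
Summed peak width in base pairs (vertical axis) per library, for all distal regions of a library (left) and for the 247 called in all 4 libraries (right). Boxes show the quartiles with the median as a line, and whiskers the 5th to the 95th percentile. On the right the medians are 180 and 204 bp in the mutants, against 216 and 218 bp in the controls.

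The widest distal region was 3R:10961804-10963112 (1309 bp), between Tengl4 and lncRNA:CR45561. Its peaks summed to 534 and 1087 bp in mutants 1 and 2 and to 1164 and 1212 bp in controls 1 and 2, so mutant 1 stood apart from the other libraries. The next, 3L:5104572-5105870 (1299 bp), lay between lncRNA:CR34047 and CG4597, with 979 and 1131 bp in the mutants, against 1260 and 1140 bp in the controls. The third, 3L:17918479-17919660 (1182 bp), lay between CG5290 and lncRNA:CR43174. It spanned 502 and 822 bp in the mutants, against 959 and 1182 bp in the controls, with no overlap between the groups. The next 2, 2L:20215549-20216730 and 2L:20216796-20217871, were neighbours in the gap between CG10651 and lncRNA:CR40341.

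The distal sequence was divided over 590 gaps between neighbouring genes. Of these, 244 (41.4%) held at least 1 distal region, 96 held one in each of the 4 libraries, and 346 held none. Gaps with a region had more distal sequence, a median of 11.4 kb, than gaps without one, 3.63 kb. The number of regions rose with the distal length of the gap (Spearman's rho 0.538, Pearson's r 0.605, across 590 gaps, which differ in length by construction and are not replicates). The 10 richest gaps held 186 regions, 22.7% of the set.

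Mutants 1 and 2 had a distal region in 172 and 130 gaps and controls 1 and 2 in 148 and 180. Mutant 1 and control 2 thus reached more gaps than mutant 2 and control 1, and the genotypes overlapped (mutant minus control -13; exact permutation test, p = 0.667). Mutant 1 and control 2 also had 34 and 35 gaps to themselves, against 4 for mutant 2 and 10 for control 1.

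In 28 of the 244 gaps (11.5%) both mutants had fewer distal regions than both controls, and in 2 (0.82%) both had more. The mutant lists were shorter as a whole, and no such count was made for the rest of the regions. With lists of equal length the counts were 16 of 219 (7.31%) and 4 (1.83%), and with lists scaled to an equal library background 22 of 233 (9.44%) and 2 (0.858%). The richest of the 28 lay between tRNA:Ile-TAT-1-2 and CG13898 on 3L, with 8 and 7 regions in the mutants, against 12 and 12 in the controls. Another was the gap between Qsox2 and Eip93F on 3R, with 5 and 8 regions in the mutants, against 9 and 9 in the controls. Eip93F encodes an ecdysone-induced transcription factor of metamorphosis. The gap between CG7794 and htl, the fibroblast growth factor receptor of muscle precursors, had 6 and 8 regions in the mutants, against 9 and 9 in the controls. The 28 also held the gaps between AOX4 and CG43335 (14 regions), lncRNA:TS6 and CG11929 (12), and Tengl4 and lncRNA:CR45561 (11). Eip93F and htl were picked from the 28 after the values were seen.

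**Figure D3:**
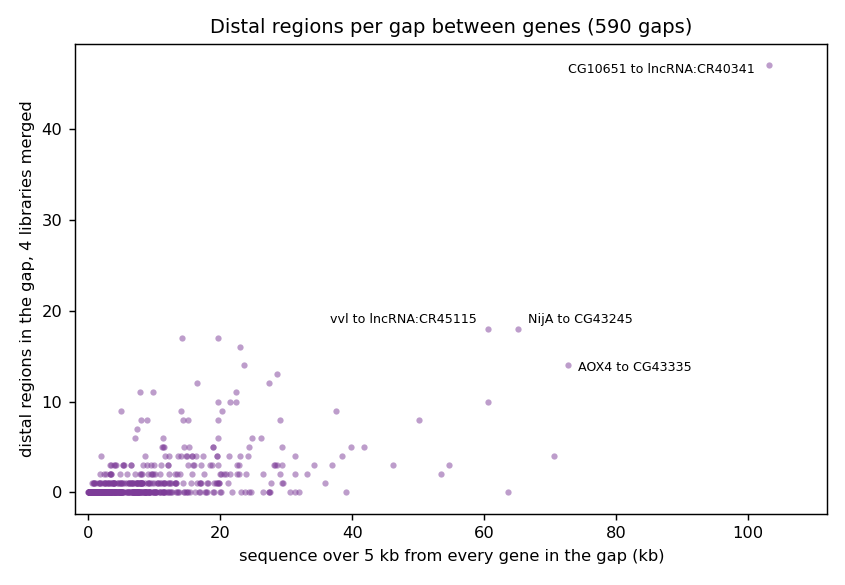
Number of distal regions per gap with the 4 libraries merged (vertical axis) against the sequence in the gap that lies over 5 kb from every gene, in kb (horizontal axis), for 590 gaps. The gap between CG10651 and lncRNA:CR40341 stands apart with 47 regions in 103 kb, and most other gaps hold 0 or 1.

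The gap between CG10651 and lncRNA:CR40341, 2L:20134924-20248038, was the richest by a wide margin. It had the longest distal sequence, 103 kb, and 47 distal regions, or 4.56 per 10 kb. As background, a transposon-rich locus that produces piRNAs, the small RNAs that silence transposons in the germline, is known in this part of 2L, and its borders were not used here. Mutants 1 and 2 had 31 and 36 regions there and controls 1 and 2 had 30 and 31. In the other 772 distal regions the mutants had 413 and 394 and the controls 484 and 501. The gap was singled out after its values were seen.

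This gap held 7 of the 17 mutant-only distal regions (14.9% of its 47 regions) and 2 of the 39 control-only ones. Outside it, 10 of 772 distal regions (1.30%) were mutant-only, below the 1.57% of all regions in the windows, and 37 (4.79%) control-only. Cutting the lists to equal length or scaling them to an equal library background left the counts of the gap at 31 and 36 in the mutants, against 30 and 31 in the controls. With −log10 q of at least 5, 5 mutant-only regions were counted there. Of the 7 mutant-only regions more than 20000 bp from a gene, 6 lay in this gap. Mutant-only regions in all fell in 11 gaps, and the 39 control-only regions in 31, with at most 2 in a gap.

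The local background under the peaks of this gap was high. It exceeded the library background by over 5% at 80.0% and 82.9% of peaks in mutants 1 and 2 and at 68.8% and 83.9% in controls 1 and 2. At other distal peaks this share was 40.8% and 54.8% in the mutants, against 48.5% and 38.6% in the controls. Its part in the calls of the gap was not tested. The trait was not particular to this gap. In all, 79.1% of peaks here lay over a raised background, at a median of 1.28 times that of the library. The gap between lncRNA:CR34047 and CG4597 had 100% and 2.26 times, and that between AOX4 and CG43335 had 0%.

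**Figure D4:**
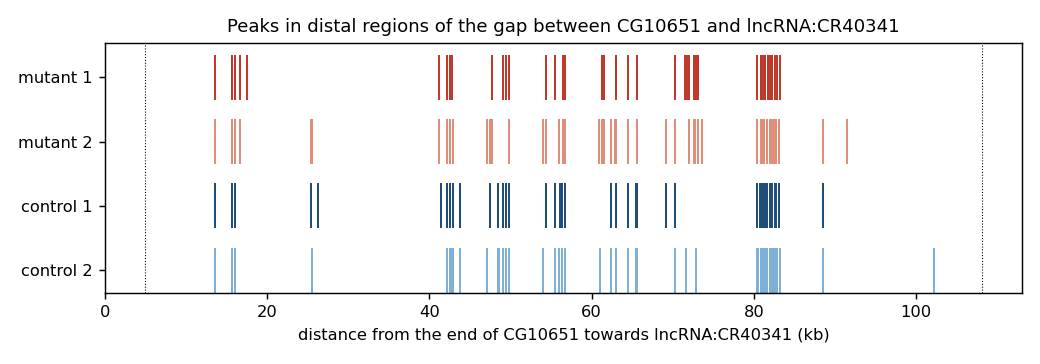
Peaks in distal regions of the gap between CG10651 and lncRNA:CR40341 in each library (rows), by distance in kb from the end of CG10651 (horizontal axis), with dotted lines 5 kb from either gene. Each bar is 1 peak, drawn at least 0.25 kb wide, and the counts of regions are 31 and 36 in the mutants, against 30 and 31 in the controls.

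The best-ranked distal region of the set, 2L:20148460-20148659, lay in this gap, 13636 bp from CG10651. Ranks are percentiles within 1 list, with low values for strong peaks. It ranked within the top 0.928% and 0.470% in mutants 1 and 2 and the top 0.181% and 0.134% in controls 1 and 2. The authors' fold enrichment over the local background was 20.3 and 25.1 in the mutants, against 37.5 and 35.0 in the controls. Both measures placed it higher in the control lists. A rank in lists of different lengths shows no change.

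The second, 3L:791578-792033, lay in the gap between tRNA:Ile-TAT-1-2 and CG13898, 11622 bp from CG13898. It ranked within the top 1.19% and 0.758% in the mutants, against 0.688% and 0.521% in the controls, with fold enrichments of 18.2 and 23.6 in the mutants, against 23.7 and 24.8 in the controls. The third, 3R:21940996-21941439, lay 7897 bp from Eip93F. It ranked within the top 0.877% and 3.86% in the mutants, against 1.23% and 2.59% in the controls, and here the mutants enclosed the controls. Its width was 420 and 433 bp in the mutants, against 442 and 427 bp in the controls, so the libraries were close.

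The next 4 all lay in the gap between NijA and CG43245 on 3L; NijA encodes Ninjurin A, a cell-surface protein. They were 3L:10739022-10739774, 3L:10740021-10740282, 3L:10747635-10748093 and 3L:10752886-10753060. The first of them was 753 bp wide and ranked within the top 4.68% and 4.18% in the mutants, against 5.36% and 3.38% in the controls, with overlap. This gap held 18 distal regions, with 15 and 12 in the mutants, against 13 and 14 in the controls, and 10 were called in all 4 libraries. Its peaks had a median rank of 17.9%, against 41.6% to 56.6% in the other 9 of the 10 richest gaps.

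The eighth, 3L:10913496-10913923, lay between Aps and lncRNA:CR45248 and ranked within the top 5.35% and 9.78% in the mutants, against 6.45% and 4.20% in the controls. The ninth, 3L:8657267-8657486, lay 18383 bp from hry, which encodes the repressor Hairy, and 6365 bp from Pex7, which encodes a peroxisomal import receptor. It ranked within the top 6.30% and 11.7% in the mutants, against 7.45% and 8.16% in the controls. The tenth, 3R:18141244-18141466, lay 5772 bp from sr, the gene of Stripe, a transcription factor of tendon cells to which flight muscles attach. It ranked within the top 2.26% and 3.91% in the mutants, against 23.2% and 4.52% in the controls. Control 1 alone was low there, with a summit of 69 fragments, against 90 and 103 in the mutants and 144 in control 2.

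**Figure D5:**
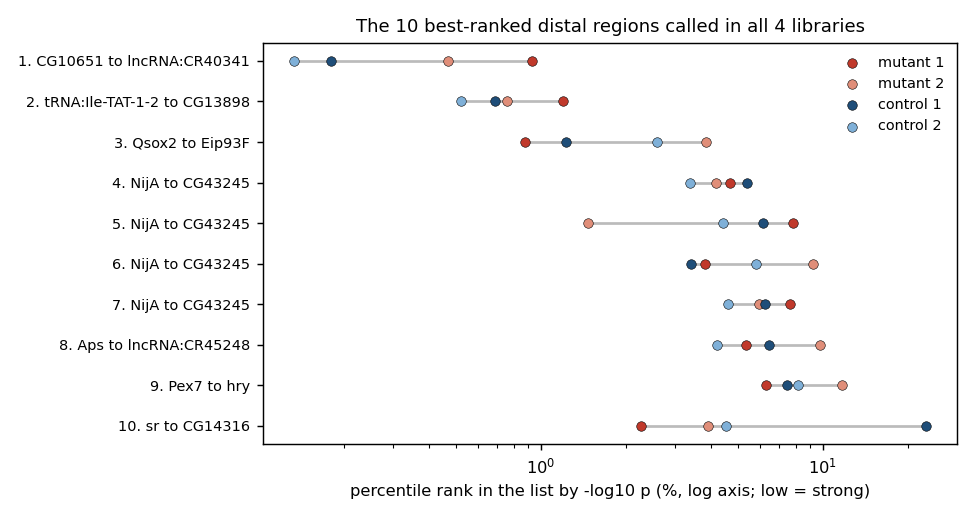
Percentile rank by −log10 p within its own list (horizontal axis, log scale, low values are strong peaks) of the 10 best-ranked distal regions called in all 4 libraries (rows, by flanking genes), with mutants in red and controls in blue. The mutant and control points overlap in all but the first and second rows, where both control ranks are lower than both mutant ranks, and in the tenth, where both mutant ranks are lower. How often ranks lie apart in this way over all regions was not counted, so these rows show no difference between the genotypes.

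The mutant-only regions were weak calls. Their peaks had a median rank of 66.7% in mutant 1 and 72.7% in mutant 2, and median summits of 22 and 28 fragments. The best ranked was 2L:20151531-20151644 in the CG10651 gap, at 24.3% and 62.1%, with summits of 34 and 28 fragments. The second, 2L:12938630-12938724, lay 6337 bp from lncRNA:CR44183 and ranked at 40.7% and 52.2%. The next 2, 2L:20196440-20196563 and 2L:20207941-20208082, were again in the CG10651 gap, and the last, 3R:21937964-21938045, lay 11110 bp from Eip93F.

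Control-only regions were of like strength, with median ranks of 60.6% in control 1 and 70.1% in control 2 and median summits of 32 and 28 fragments. The best ranked was 2L:16141282-16141389, 5131 bp from lncRNA:CR44871 and 24496 bp from Ca-alpha1D, which encodes a voltage-gated calcium channel of muscle and nerve. It ranked at 22.3% and 46.1%, with summits of 71 and 36 fragments. The next were 3L:12924437-12924520 between CG32115 and CG10752, 3L:10753369-10753539 in the NijA gap, 2L:20183409-20183504 in the CG10651 gap, and 3R:12490748-12490836 between lncRNA:alphagamma-element:CR32865 and Hsp70Bbb.

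The remaining rich gaps differed in how far their local background was raised. The gap between lncRNA:alphagamma-element:CR32865 and Hsp70Bbb, one of the heat shock protein genes of this cluster, had 17 distal regions in 14.2 kb, with 8 and 13 in the mutants, against 15 and 12 in the controls. All of its peaks with a recovered background (100%) lay over a raised one, at a median of 2.05 times that of the library. The gap between lncRNA:CR34047 and CG4597 also had 17, with 12 and 15 in the mutants, against 15 and 14 in the controls, and 12 were called in all 4 libraries. There too 100% of peaks lay over a raised background. In the gap between AOX4, an aldehyde oxidase gene, and CG43335, with 14 regions in 72.6 kb, 0% did. The genotypes did not overlap in the AOX4 gap, with 6 and 9 regions in the mutants, against 11 and 10 in the controls. The gap between msopa and lncRNA:CR45236 held 13 regions, and that between lncRNA:TS6 and CG11929 held 12.

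Flanking genes were counted by gene list. Of 10829 genes in the windows, 1050 (9.70%) bordered distal sequence and 457 (4.22%) bordered a gap with a distal region, which is 43.5% of those 1050. Genes for long noncoding RNAs bordered distal sequence in 24.2% of cases and protein-coding genes in 8.18%. The lists below were chosen with earlier results of these data known, and the flank of a gene follows from the annotation alone.

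Developmental transcription factors bordered distal sequence in 38 of 84 cases (45.2%), and 19 of these 38 (50%) had a distal region in the gap, against 43.5% of all genes that border distal sequence. Only 4 of the 38 (10.5%) had one called in all 4 libraries, against 16.4%. The gap of vvl, a POU-domain factor, held 18 regions in 60.5 kb, with 12 and 10 in the mutants, against 15 and 11 in the controls, and 9 were called in all 4. Its best region, 3L:6856200-6856662, ranked within the top 12.4% and 3.66% in the mutants, against 20.9% and 13.5% in the controls. That region was picked after its values were seen, with no count of how often ranks lie apart in this way over all regions. By contrast fkh, which encodes the factor Fork head, bordered 6 regions, of which 0 were called in all 4 libraries. The gap between bab1 and bab2, a pair of factors that pattern limbs and abdomen, held 5, again with 0 called in all 4.

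Genes of neuronal adhesion and recognition bordered distal sequence in 27 of 56 cases (48.2%). Of the 27, 15 (55.6%) had a distal region, against 43.5% of all genes that border distal sequence. One called in all 4 libraries was found for 7 of the 27 (25.9%), against 16.4%. The 27 bordered more distal sequence, a median of 16.8 kb, against 7.30 kb for all such genes. The part of this length in the shares was not tested. DIP-delta, an immunoglobulin-type recognition protein, bordered 12 regions, with 10 and 12 in the mutants, against 12 and 11 in the controls, and 10 were called in all 4. Its best-ranked region, 3L:5458949-5459068, lay 16609 bp away and ranked at 3.88% and 5.83% in the mutants, against 22.6% and 25.2% in the controls. Its summits had 109 and 141 fragments in the mutants, against 109 and 89 in the controls. The region was picked after its values were seen, and how often ranks lie apart in this way over all regions was not counted. All peaks of the gap toward CG4835 with a recovered background lay over a raised one, at a median of 3.66 times that of the library, and its part in the ranks was not tested. klg, which encodes the adhesion protein Klingon, bordered 9 regions, and Nlg1 and Nlg3, which encode neuroligins, bordered 8 each. The best region of klg, 3R:22881469-22881949, ranked at 9.92% and 2.44% in the mutants, against 10.4% and 14.2% in the controls. That of Nlg3, 3R:7558792-7559251, ranked at 14.2% and 1.91% in the mutants, against 9.47% and 13.8% in the controls. Mutant 2 was the strongest library at both. These regions too were picked after their values were seen, with no such count over all regions. The gap of Nlg3 toward CG45545 was among the 28, with 5 and 5 regions in the mutants, against 7 and 6 in the controls.

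Developmental signalling genes bordered distal sequence in 12 of 27 cases (44.4%), and 6 of the 12 had a distal region (50%, against 43.5% of all bordering genes). Their median of distal sequence was 13.9 kb, against 7.30 kb. htl bordered 12 regions in all, of which 5 were called in all 4 libraries. Its best region, 3R:18039639-18040341, lay 5226 bp from htl and ranked at 19.6% and 32.9% in the mutants, against 23.9% and 9.93% in the controls. fz, which encodes the receptor Frizzled, bordered 4 regions, and vn, which encodes the ligand Vein, bordered 3.

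The lists of muscle, glycolytic and cell cycle genes are short, and their shares are set beside the 9.70% of all genes that bordered distal sequence. Of 17 flight muscle genes, 1 (5.88%) did so, Act79B, an actin gene of thoracic and leg muscle. Its gap held 2 regions in 29.0 kb, 1 called in mutant 1 and control 2 and 1 in control 1. The flight muscle marker salm was counted with the developmental transcription factors instead, and bordered 32.0 kb of distal sequence with 0 regions. Of 11 glycolytic genes, 1 (9.09%) did so, Ald2, with 0.431 kb and 0 regions. Of 20 E2F family and cell cycle genes, 0 did. Pgk itself lies at 2L:2746880-2753068, with 0 distal regions within 100 kb. The nearest, 2L:3251577-3251914, was 499 kb away, between lncRNA:CR45336 and lncRNA:CR45337, and was called in both mutants and in control 1.

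Recurrence varied with distance from genes, with no test made. The share called in all 4 libraries was 27.8% at 5000 to 10000 bp from a gene (475 regions), 34.0% at 10000 to 20000 bp (259) and 31.8% beyond (85), against 43.5% within 1000 bp and 25.9% inside genes. Mutant-only regions made up 1.47% and 1.16% of the first and second of these distal classes and 8.24% of the farthest, with 6 of those 7 in the CG10651 gap. Control-only regions made up 3.58%, 7.72% and 2.35% of the same classes, with no steady trend.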

How the data were processed

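The authors deposited a separate peak list for every library, so peaks were not called on pooled replicates. The submitters' processing notes name bcl2fastq 2.20, cutadapt 2.3, Bowtie2 2.4.1, Picard, MultiQC 1.5, MACS2 2.2.7.1 and the build BDGP6. Duplicate handling, read shifting and thresholds are not given in the sources used here. The fold enrichment (a ratio), the −log10 p and the −log10 q are the authors' deposited values and were used within 1 list only. The deposited score was not used. Genes came from a RefSeq table of Release 6 plus ISO1 MT (17673 genes on the main arms, no strand). Sequence features were planned but not analysed here.

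Fold enrichment and −log10 p up to 250 were solved, with Poisson counts, for the whole-number height of the summit and its local background (misfit at most 0.000896 in −log10 p). The most frequent background is a rough guide to depth. As an alternative, heights were scaled to the lowest library background and peaks kept at −log10 p of at least 3.53. This equalises that background alone, and lists of 25528 to 27860 peaks remained. Code was tested on simulated data (Python 3.11.15, scipy 1.17.1). Members, gene lists and tests were chosen with earlier results of these data known. Regions were named by rule: the 10 best-ranked in all 4 libraries, 5 mutant-only, 5 control-only, the 5 widest, the 10 richest gaps, and up to 4 genes per list. The best region of each named gene, the other gaps described and the separate account of the CG10651 gap were chosen after their values were seen.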

Additional observations from a re-analysis of the deposited data

Results flagged for a closer look

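The distal minus rest difference in agreement between replicates went opposite ways in the genotypes. It was 6.12 and 3.24 percentage points in mutants 1 and 2 and -3.59 and -0.125 in controls 1 and 2, a mutant minus control difference of 6.54 (permutation of the libraries, exact and two-sided, p = 0.333, the lowest value for 2 against 2). Both values of a genotype come from 1 pair of libraries, so they are not separate values, and the test cannot decide. With lists of equal length control 2 turned to 2.59, and with lists scaled to an equal library background to 0.720.

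The median rank of distal peaks, distal minus rest, also went opposite ways. It was -1.73 and -2.48 percentile points in mutants 1 and 2, where distal peaks ranked stronger, and 7.88 and 1.62 in controls 1 and 2, a mutant minus control difference of -6.86 (exact permutation test, p = 0.333, the smallest possible). With lists of equal length the difference was -11.2. Without the CG10651 gap it was -6.86, with mutant 1 at 0.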

How the results depend on the processing

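Equal list length, lists scaled to an equal library background, a stricter q, distances of 2000 and 10000 bp, protein-coding genes alone, 50% reciprocal overlap and leaving out each library were planned; leaving out the CG10651 gap was added after seeing the data. Among 143 alternative values, 111 kept their direction or stayed within the limits set for counts and shares, 19 moved and 13 changed sign. The lower density of distal sequence, the smaller number of distal regions in the mutants, their lower median width, and the larger width of distal than of other peaks kept their sign in every setting run, although the last fell to 2.25 bp at 2000 bp (exact sign-flip test, p = 0.875).

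Control-only regions numbered 85 at 2000 bp, 22 at 10000 bp and 73 with protein-coding genes alone, as the set itself grew or shrank. Mutant-only regions numbered 9 with −log10 q of at least 5, where the control-only share was 82.7%, 10 at 10000 bp, 29 with 50% reciprocal overlap and 10 without the CG10651 gap. The mutant minus control difference in distal share, 0.0664 percentage points, was -0.0448 at equal length, -0.00268 at equal background and -0.00214 without the gap. The mutant minus control difference in gaps called was 9.5 at equal length. Averaged over the libraries, the distal minus rest difference in median rank was -2.85 at 10000 bp. The distal minus rest difference in agreement was -0.857 at 2000 bp. The cause of these sign changes was not tested.

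With 1 library left out, control-only regions ranged from 69 to 154, mutant-only regions from 28 to 116 and the control-only share from 46.5% to 82.4%, since a lone library then decides. The mutant minus control difference in distal share ranged from -0.0315 (without control 2; -6.90e-05 without mutant 2) to 0.156. That in gaps called ranged from -34 to 8 (without mutant 2; 2.5 without control 2). The distal minus rest difference in median rank ranged from -0.807 (without control 1) to 2.59. That in agreement ranged from -1.93 (without mutant 2; -1.44 without mutant 1) to 4.81. Libraries with equal replicate numbers did not deviate together (correlation -0.0960 over 44429 regions), so the numbers do not pair them. In the rest, 1000 regions were called in mutant 1 and control 2 alone and 522 in mutant 2 and control 1 alone. The pairs of equal number had 313 (replicates 1) and 357 (replicates 2), and the cause was not tested. A replicate block left the mean differences at -86 regions, 0.0664 percentage points, -10.75 bp and -13 gaps, and an exact test over 2 pairs cannot go below p = 0.5. Mutant-only regions rested on median summits of 22 and 28 fragments, so a missing call does not show a closed region.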
